A study of Homo sapiens with 32 samples.

Results

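The insulin-like growth factor (IGF) genes examined here were the IGF binding protein genes IGFBP2, IGFBP3, IGFBP4, IGFBP5, IGFBP6 and IGFBP7, the growth factor gene IGF2, and the receptor genes IGF1R, IGF2R and INSR. They are 10 of the 57820 genes counted in HCT116, an established human line from a colorectal carcinoma. In HEK293, a line derived from human embryonic kidney, 7 of them are among the 11887 genes listed, none of which has under 5 counts over the 4 libraries. IGFBP3, IGFBP6 and IGF2 are not listed for HEK293 and were not analysed there. Whether low counts kept them off that list is not known here. The 10 genes were listed by name and chosen by results of these libraries already known, at least by the level of IGFBP3 after deletion of the element E7 in HCT116. The values of that comparison are therefore given as a description.

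The series asked whether the loss of a distal regulatory element changes the transcriptome according to the size of its H3K27ac peak. Each library came from a clonal population expanded from a single cell that was sorted for high Cas9-GFP. Deletion clones had received Cas9-GFP with guide RNAs against E7 (in the 8q24 region of MYC) or against 18qE or 18qNE (both in the 18q21 region of SMAD7), and control clones had received Cas9-GFP with an empty guide vector. HCT116 gave 3 E7 libraries (1 clone, RNA extraction days A, B and C), 3 18qNE libraries (3 clones, with clones 1 and 3 on day A and clone 2 on day B), 2 18qE libraries (2 clones, day D), 12 control libraries (4 clones, each extracted on days A, B and C) and 2 further control libraries of day D. HEK293 gave 2 E7 libraries, which carry the same clone label, and 2 control libraries, all of day E. The deletions themselves were not checked in these counts. All cells were grown to near confluence in medium with fetal bovine serum, which itself brings growth factors. The gene counts of a library summed to between 9871667 and 14862268 for days A to C, between 22972412 and 24887785 for day D, and between 26491576 and 34790193 for HEK293. All 7 epithelial markers examined (EPCAM, CDH1, KRT8, KRT18, CLDN4, CLDN7 and ELF3) averaged at least 1 count per 1000000 gene counts of a library (CPM) in every HCT116 group. MYC, the growth-driving gene of the E7 region, had 162 to 216 CPM in the HCT116 E7 libraries, against 387 to 482 CPM in the 12 HCT116 control libraries.

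IGF2 is a secreted growth factor that signals through the receptor tyrosine kinases IGF1R and INSR, which recruit adaptors such as IRS1 and IRS2 and switch on the PI3K and AKT pathway. IGF2R, the cation-independent mannose 6-phosphate receptor, carries no kinase and takes IGF2 into the cell for degradation. The IGF binding proteins hold IGFs outside the cell and limit or prolong their access to the receptors, and IGFBP7 binds IGFs only weakly. In colorectal cancer, gain of IGF2 expression is a known event.

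The 250 bases before the start site are shown for 4 genes picked after their values were seen: IGFBP3, IGF2R and IGF1R, which stood apart in the E7 clone, and IGFBP5, which stood apart between the lines. RefSeq (GRCh38.p14, not the hg19 build of the count files) gave windows for 8 of the 10 genes. Each sequence is written 5′ to 3′ on the gene's own strand, ends at the base before the start, and has every CACGTG or TATANA on either strand in capitals. The windows are those of IGFBP3 (chr7:45921273-45921522, minus strand), IGF2R (chr6:159968832-159969081, plus strand), IGF1R (chr15:98648289-98648538, plus strand) and IGFBP5 (chr2:216695550-216695799, minus strand).
IGFBP3: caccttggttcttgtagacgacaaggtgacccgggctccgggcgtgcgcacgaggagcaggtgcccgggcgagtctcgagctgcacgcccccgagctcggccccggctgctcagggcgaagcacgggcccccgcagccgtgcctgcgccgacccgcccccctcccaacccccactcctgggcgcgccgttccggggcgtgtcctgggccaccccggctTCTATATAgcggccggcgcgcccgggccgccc
IGF2R: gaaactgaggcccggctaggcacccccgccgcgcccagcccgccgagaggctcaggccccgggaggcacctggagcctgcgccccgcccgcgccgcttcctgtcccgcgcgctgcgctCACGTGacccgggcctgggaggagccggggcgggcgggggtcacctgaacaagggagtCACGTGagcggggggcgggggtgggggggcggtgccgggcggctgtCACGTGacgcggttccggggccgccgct
IGF1R: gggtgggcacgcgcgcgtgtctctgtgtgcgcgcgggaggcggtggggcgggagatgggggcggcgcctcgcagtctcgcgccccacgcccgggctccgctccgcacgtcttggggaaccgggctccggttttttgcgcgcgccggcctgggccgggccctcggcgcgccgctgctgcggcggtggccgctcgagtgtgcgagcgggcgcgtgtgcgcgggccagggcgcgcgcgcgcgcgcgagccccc
IGFBP5: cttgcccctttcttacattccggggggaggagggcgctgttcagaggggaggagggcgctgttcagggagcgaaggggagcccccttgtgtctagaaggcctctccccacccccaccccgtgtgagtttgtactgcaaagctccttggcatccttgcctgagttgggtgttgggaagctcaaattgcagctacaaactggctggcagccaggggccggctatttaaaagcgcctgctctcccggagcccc

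CACGTG is the canonical E-box, a palindrome that reads alike on both strands and is known to be bound by MYC among other factors. IGF2R held 3 copies, whose first bases lay 132, 74 and 28 bases before the start, and none of the other windows of these genes held 1. Of 35116 promoter windows of this length, 6.34% held CACGTG, and 28 (0.0797%) held 3 or more, a count taken after the IGF2R window had been read. TATANA, a form of the TATA box, was found in IGFBP3 at 32 and 30 bases before the start (overlapping matches) and in IGFBP4 at 29 bases, against 17.7% of all windows. GGGCGG, the GC box, was searched on both strands and occurred 6 times in the IGF2R window, 4 times in INSR, 2 times each in IGFBP3 and IGF1R, and not at all in IGFBP5, where 42.6% of all windows held at least 1 and 13.9% held 3 or more. The share of G and C was 81.2% in IGF1R, 79.2% in IGF2R, 78.4% in INSR, 76.0% in IGFBP3, 71.6% in IGFBP4, 61.2% in IGFBP5 and 61.2% in IGFBP6, against a median of 58.0% over all windows. The 3 IGFBP2 windows held 56.4%, 56.8% and 69.2%. These matches describe the letters of the windows and do not show that any factor binds there.

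The first comparison set the E7 clone of HCT116 against the 4 control clones. IGFBP3 lay far higher in the E7 clone, IGF2 and IGF1R lay lower, and IGF2R lay somewhat higher. IGFBP6, INSR, IGFBP2 and IGFBP5 differed by less or were too rarely counted, and IGFBP4 and IGFBP7 were close to absent in both groups. In bulk libraries a change in the share of cells that express a gene and a change in its RNA per cell cannot be told apart. The share of all genes whose E7 libraries lay outside the control libraries, in all or within a day, was not counted. Such positions are given below as a description, and nothing is read from them.

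**Figure D1:**
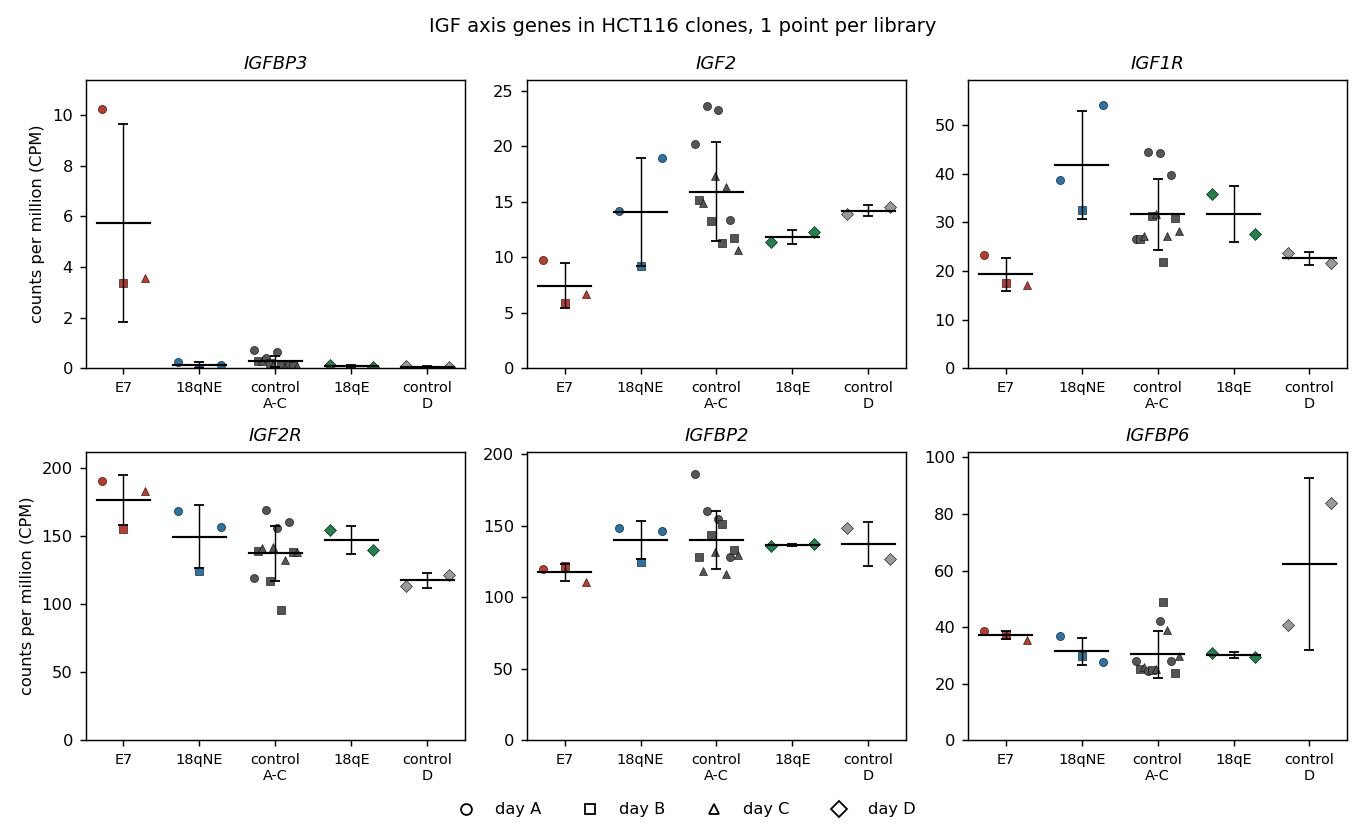
CPM (y axis, linear from 0) of 6 IGF genes in each HCT116 library, by group, with the symbol giving the RNA extraction day, a line at the group mean and a bar of 1 SD. The 3 E7 libraries sit between 3.37 and 10.2 CPM for IGFBP3, above all 12 control libraries of days A to C (0.0781 to 0.726 CPM). For IGF2 they sit between 5.90 and 9.76 CPM, below all 12 (10.6 to 23.6 CPM). The share of all genes that lie apart in this way was not counted.

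IGFBP3 (ENSG00000146674.10, chromosome 7) encodes the main IGF carrier of blood, which can also restrain growth of cultured cells. It had 10.2, 3.37 and 3.57 CPM in the E7 libraries of days A, B and C, against 0.0781 to 0.726 CPM in the 12 control libraries, with a median of 0.206 CPM. Every E7 library lay above every control library. The control libraries held 43 IGFBP3 counts in all, 27 of them on day A, so the control level is known only roughly. Pooled over libraries, 241 E7 counts against 43 control counts gave a ratio of 20.5 (exact 95% interval 14.8 to 29.1, counting error only). Taken within a day, the E7 library was 20.6 times the control mean on day A, 19.2 times on day B and 22.5 times on day C. The level of day A was the highest in both groups, while the ratio moved little between days. The fitted log2 change was 4.36 (SE 0.38), and it was 3.59 without the E7 library of day A and 4.67 without control clone 1. In the fit without the E7 library of day A the control clones kept day A, so days were not balanced between the groups.

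IGF2 (ENSG00000167244.13, chromosome 11) had 9.76, 5.90 and 6.70 CPM in the E7 libraries of days A, B and C, against 10.6 to 23.6 CPM in the control libraries. The groups did not overlap, and the E7 library was 0.485, 0.458 and 0.454 times the control mean of its own day on days A, B and C. The fitted log2 change was -1.08 (SE 0.25). The IGF2 locus overlaps INS-IGF2 and the antisense gene IGF2-AS. INS-IGF2 had 0 counts in both groups, and IGF2-AS had 5 counts over the E7 libraries and 24 over the control libraries, so few reads were assigned to either. Reads counted as ambiguous between genes were given to no gene, so the counts of overlapping genes can miss shared reads. Whether the counting used strand is not stated in these sources. H19, the imprinted neighbour of IGF2, had 1.61, 2.74 and 1.92 CPM in the E7 libraries, against 3.17 to 55.2 CPM in the control libraries, and did not pass the test (log2 change -2.82, SE 1.41).

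IGF1R (ENSG00000140443.9, chromosome 15), the receptor kinase for IGF1 and IGF2, had 23.3, 17.5 and 17.1 CPM in the E7 libraries of days A, B and C, against 21.8 to 44.4 CPM in the control libraries, with a median of 29.5 CPM. The E7 library of day A lay among the control values as a whole but below all 4 control libraries of its own day, as did those of days B and C. The ratio to the control mean of the same day was 0.60, 0.63 and 0.60 on days A, B and C, and the fitted log2 change was -0.69 (SE 0.16). INSR (ENSG00000171105.9, chromosome 19), the insulin receptor kinase, had 48.2, 26.0 and 37.3 CPM in the E7 libraries, against 24.9 to 63.5 CPM in the control libraries, with a median of 36.7 CPM. It stood within the control range on each day, with a log2 change of -0.08 (SE 0.11), so that the related receptor kinase genes stood differently in the same libraries.

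IGF2R (ENSG00000197081.8, chromosome 6), whose window holds the 3 CACGTG copies, had 190.7, 155.6 and 183.2 CPM in the E7 libraries, against 95.6 to 169 CPM in the control libraries, with a median of 138.9 CPM. The libraries of days A and C lay above all 12 control libraries, and each E7 library lay above the 4 control libraries of its own day. The ratio within a day was 1.26, 1.27 and 1.32, and the fitted log2 change was 0.37 (SE 0.08). IGF2R overlaps the noncoding gene AIRN. Reads counted as ambiguous between genes were given to no gene, and how many of them fell on IGF2R is not known here.

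Of the remaining binding proteins, IGFBP2 (ENSG00000115457.5, chromosome 2), a binding protein with a preference for IGF2, had 119.7, 122.1 and 110.8 CPM in the E7 libraries, against 116 to 186 CPM in the control libraries. The E7 library was below the 4 control libraries of each day, by a ratio of 0.761 on day A, 0.878 on day B and 0.894 on day C, and the log2 change was -0.25 (SE 0.10). IGFBP6 (ENSG00000167779.3, chromosome 12), which binds IGF2 far more tightly than IGF1, had 38.7, 37.4 and 35.6 CPM in the E7 libraries, against 23.7 to 49.0 CPM in the control libraries. Those E7 values lay between control clone 3 and the other control clones, and the log2 change was 0.30 (SE 0.29). IGFBP5 (ENSG00000115461.4, chromosome 2), a binding protein that also attaches to extracellular matrix, held 5 counts over the 3 E7 libraries and 36 over the 12 control libraries (log2 change -0.93, SE 1.15). IGFBP4 (ENSG00000141753.5, chromosome 17), an inhibitory binding protein, held 1 count over the E7 libraries and 2 over the control libraries, and IGFBP7 (ENSG00000163453.7, chromosome 4) held 3 and 4. IGFBP4 and IGFBP7 did not pass the filter on low counts, and a difference in either was not detectable at this depth.

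Of the 8 members tested, 4 passed edgeR's adjusted threshold of 0.05 (IGFBP3 and IGF2R higher, IGF2 and IGF1R lower), where 13.9% of all 17664 genes tested passed it (7.58% higher, 6.32% lower). Since the genes were listed with this comparison in view, nothing is read from that count. The E7 group is a single clone, whose spread the fit borrows from the control clones, so an effect of the deletion and a trait of that clone cannot be told apart. Without control clone 2, IGFBP3 alone stayed past the threshold, while the log2 changes were -1.02 for IGF2, -0.63 for IGF1R and 0.39 for IGF2R. Without control clone 1 the members past it were IGFBP3 and IGF1R, with -1.05 for IGF2 and 0.36 for IGF2R. IGF2 missed it without the E7 library of day B (log2 change -0.93), IGF2R missed it without day A (0.39), and without control clone 3 IGFBP6 passed it too (0.53). The fit without the E7 library of day B kept day B in the control clones, so days were not balanced there. Summed fibroblast markers had 12.3 to 22.6 CPM in the E7 libraries and 17.7 to 30.3 CPM in the control libraries, with 1 of 7 averaging at least 1 CPM and COL1A2, DCN and LUM at 0 in both. Markers of the HEK293 line (NEFL, NEFM, DPYSL3, GATA3 and VIM, 4 of 5 listed) summed to 23.5 to 33.4 CPM in the E7 libraries and 71.8 to 94.0 CPM in the control libraries, without overlap, with 2 averaging at least 1 CPM and NEFM at 0 in both. The part of these marker lists in the member values was not tested.

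Genes around these members were taken from a list of 62 (other IGF binders, proteases of binding proteins, receptor adaptors, the PI3K, AKT and mTOR chain, FOXO factors, IGF2 mRNA-binding proteins and the IGF2 imprinted region). Of its 47 genes tested, 5 passed the threshold as higher and 3 as lower in the E7 clone, with a median log2 change of 0.04, where the median of all genes tested was -0.01 and 7.58% of them passed as higher and 6.32% as lower. That count is near the share among all genes and nothing is read from it. The lower ones were IRS1, the adaptor of both receptor kinases (log2 change -1.29, SE 0.11, with 112 pooled CPM in E7 libraries and 276 in control libraries), FOXO1 (-0.78, SE 0.13) and FOXO3 (-0.33, SE 0.09), transcription factors that AKT keeps out of the nucleus. The higher ones were PIK3R3 (1.25, SE 0.22) and PIK3R1 (0.64, SE 0.10), regulatory subunits of PI3K, the adaptor IRS2 (0.81, SE 0.15), the tyrosine phosphatase PTPN1 (0.43, SE 0.07), which acts on both receptor kinases, and the lipid phosphatase INPPL1 (0.40, SE 0.08). The adaptors IRS1 and IRS2 thus lay on opposite sides of the controls. The ligand gene IGF1 held 4 counts over the E7 libraries and 11 over the control libraries, INS held none in either, and IGFBP1, next to IGFBP3 on chromosome 7, held 1 count over the E7 libraries and none over the control libraries.

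**Figure D2:**
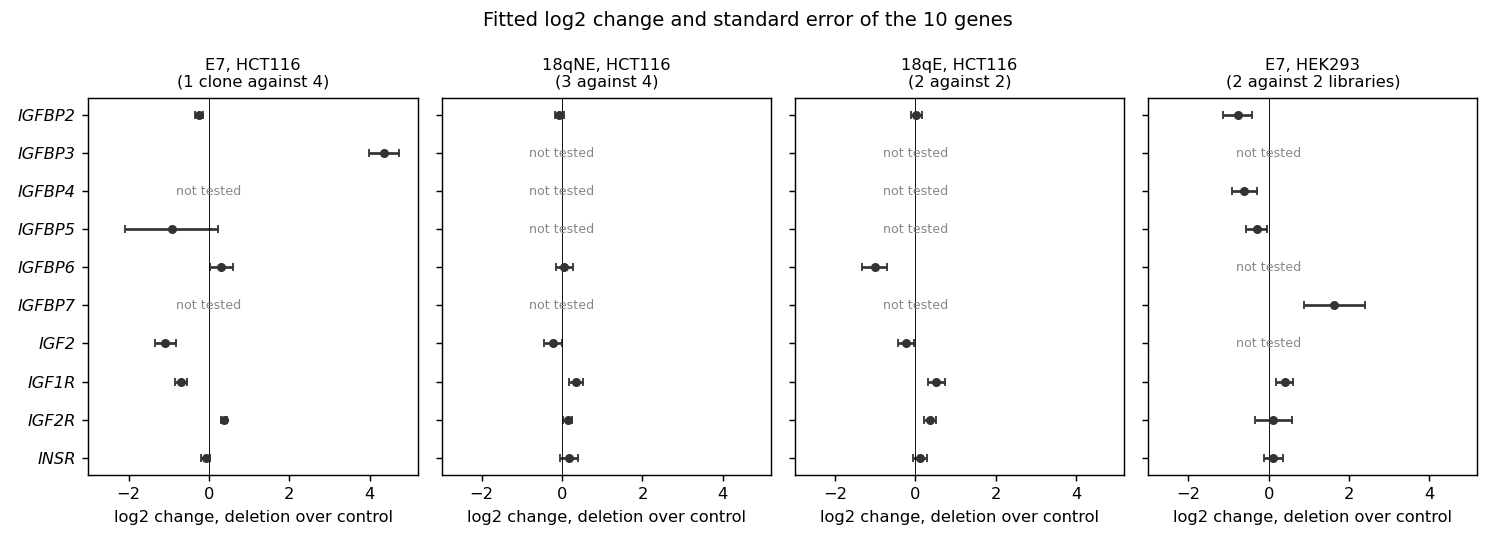
Fitted log2 change, deletion over control (x axis), with a bar of 1 standard error on each side, for the 10 genes (rows) in the 4 deletion comparisons; genes not listed or below the filter are marked as not tested. IGFBP3 stands at 4.36 for E7 in HCT116, and in the 18qNE panel every tested gene stays between -0.23 and 0.34.

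The second comparison set the 18qNE clones against the control clones of days A and B. Clones 1 and 3 were of day A and clone 2 of day B, while each control clone was summed over both days. Day and deletion were thus not balanced, and day was not a term of this fit. The control mean of IGF1R was 38.8 CPM on day A and 27.7 CPM on day B. None of the 6 genes tested passed, and IGFBP3, IGFBP4, IGFBP5 and IGFBP7 stayed under the filter on low counts. IGFBP3 stayed low, at 0.264, 0 and 0.150 CPM in 18qNE clones 1, 2 and 3 (5 counts in all), against 0.0831 to 0.726 CPM in the 8 control libraries of those days. IGF2 had 14.1, 9.23 and 18.9 CPM in 18qNE clones 1, 2 and 3, against 11.3 to 23.6 CPM in control libraries (log2 change -0.23, SE 0.23). IGF1R had 38.7, 32.6 and 54.0 CPM in the 18qNE clones, against 21.8 to 44.4 CPM in control libraries (log2 change 0.34, SE 0.17, p = 0.0789 before adjustment in edgeR's quasi-likelihood test). All of these ranges overlapped. IGF2R had 124 to 168 CPM and INSR 27.7 to 65.0 CPM in the 18qNE clones, against 95.6 to 169 CPM for IGF2R and 24.9 to 63.5 CPM for INSR in control libraries. Clone 2, extracted on day B, had the lowest level of the 18qNE clones for IGF2, IGF1R, IGF2R, INSR and IGFBP2. IGFBP6 had 36.8, 30.0 and 27.7 CPM in 18qNE clones 1, 2 and 3, against 23.7 to 49.0 CPM in control libraries. IGFBP7 had 1 or 2 counts in each 18qNE library and IGFBP4 none.

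With edgeR, 0 of 6 members tested passed at an adjusted threshold of 0.05 in the 18qNE comparison, where 0% of 15524 genes passed (505 genes had p under 0.05 before adjustment, none of them a member, and DESeq2 called 13 genes). The 45 tested genes of the IGF pathway list likewise gave 0 calls, with a median log2 change of 0.08, against 0.01 for all genes tested.

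The third comparison set 2 18qE clones against the 2 control libraries of day D, and again none of the same 6 tested genes passed. IGFBP6 had 30.9 and 29.5 CPM in the 18qE clones, against 40.8 and 83.8 CPM in the day D control clones 1 and 2. Both 18qE libraries lay below both control libraries, but the control libraries differed from each other more than the lower one differed from the 18qE clones. The log2 change was -1.01 (SE 0.31, p = 0.0129 before adjustment in edgeR, adjusted p = 1), and it was -0.39 without control clone 2. IGF1R had 35.8 and 27.6 CPM in the 18qE clones, against 23.6 and 21.7 CPM in control clones (log2 change 0.53, SE 0.20, edgeR p = 0.0316, adjusted p = 1). IGF2R had 154.7 and 140.1 CPM in the 18qE clones, against 113.5 and 121.5 CPM in control clones (log2 change 0.36, SE 0.15, edgeR p = 0.0452, adjusted p = 1). Both receptor genes lay higher in each 18qE library than in either control library. How many of all genes lay apart in this way, 2 libraries against 2, was not counted, so nothing is read from such positions. IGF2 had 11.4 and 12.3 CPM in the 18qE clones, against 13.9 and 14.5 CPM in control clones (log2 change -0.23, SE 0.20). IGFBP2, with 136.1 and 137.3 CPM in the 18qE clones and 148.3 and 126.5 CPM in control clones, and INSR, with 34.4 and 42.5 CPM in the 18qE clones and 33.2 and 39.4 CPM in control clones, overlapped. IGFBP3, IGFBP4, IGFBP5 and IGFBP7 held at most 4 counts over both 18qE libraries.

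In the 18qE comparison 0 of 6 members tested passed edgeR's threshold, where 0% of 15261 genes passed (391 genes had p under 0.05 before adjustment, 3 of them members, and DESeq2 called 19 genes). Leaving out 18qE clone 1 gave 107 called genes and leaving out 18qE clone 2 gave 132, with no member among them in either case. The pathway list gave 0 calls among 45 genes, with a median log2 change of 0.03, against 0.00 for all genes.

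In HEK293, E7 deletion was compared between 2 E7 and 2 control libraries for the 7 listed genes, none of which passed the test. IGF1R had 168 and 149 CPM in the E7 libraries 1 and 2, against 133 and 96.3 CPM in control libraries 1 and 2. Both E7 libraries lay above both control libraries, which is the other side from HCT116, where each E7 library lay below its 4 same-day controls. The log2 change was 0.40 (SE 0.21, adjusted p = 0.491 in edgeR). The difference between the lines in this change was not tested. IGF2R had 172 and 169 CPM in the E7 libraries, against 226 and 79.3 CPM in control libraries 1 and 2, so that the E7 libraries stood between the controls (log2 change 0.11, SE 0.46, adjusted p = 0.918). INSR had 45.7 and 47.1 CPM in the E7 libraries, against 50.1 and 32.3 CPM in control libraries (log2 change 0.11, SE 0.24, adjusted p = 0.839).

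**Figure D3:**
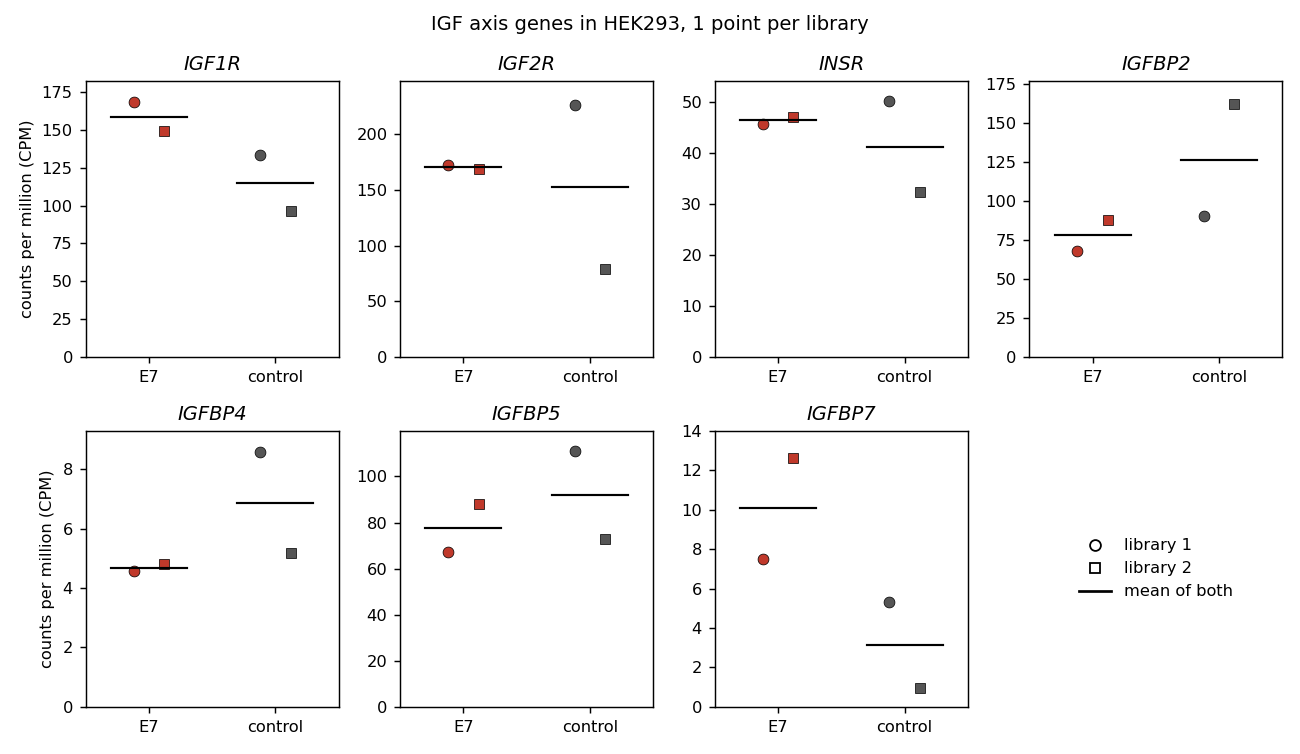
CPM (y axis, linear from 0) of the 7 listed IGF genes in the HEK293 libraries, E7 left of control, with the symbol giving the library number and a line at the mean of both libraries. The control libraries stand at 226 and 79.3 CPM for IGF2R, on either side of the E7 libraries, while for IGFBP7 the E7 libraries (7.50 and 12.6 CPM) lie above both controls (5.34 and 0.944 CPM).

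Among the binding proteins, IGFBP7 had 7.50 and 12.6 CPM in the HEK293 E7 libraries, against 5.34 and 0.944 CPM in control libraries (log2 change 1.64, SE 0.75, adjusted p = 0.452 in edgeR). Control library 1 held 152 counts and control library 2 held 25, so the control level itself was uncertain. IGFBP2 had 68.1 and 88.2 CPM in the E7 libraries, against 90.4 and 162 CPM in control libraries (log2 change -0.77, SE 0.36, adjusted p = 0.45). IGFBP4 had 4.57 and 4.80 CPM in the E7 libraries, against 8.57 and 5.17 CPM in control libraries (log2 change -0.61, SE 0.31, adjusted p = 0.481). The E7 libraries lay below both controls for IGFBP2 and IGFBP4 and above both for IGFBP7 and IGF1R. The share of all genes that lay apart in this way, 2 libraries against 2, was not counted, so nothing is read from these positions. IGFBP5 had 67.3 and 88.1 CPM in the E7 libraries, against 111 and 72.8 CPM in control libraries, and the ranges overlapped (log2 change -0.30, SE 0.26, adjusted p = 0.634).

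For E7 in HEK293, 0 of 7 members tested passed, where 0.0254% of 11806 genes passed (3 genes, 0.00847% of all as higher and 0.0169% as lower, with 1487 at p under 0.05 before adjustment, none of them a member, and 463 called by DESeq2). The calls turned on the control libraries: without control library 1, IGFBP2 (log2 change -1.17), IGFBP7 (3.29), IGF1R (0.61), IGF2R (0.99) and INSR (0.41) passed, and without control library 2, IGFBP4 (-0.90) and IGF2R (-0.44) passed, the last on the other side of 0. Of the pathway list, 0 of 45 genes passed, with a median log2 change of 0.20, against -0.01 for all genes.

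Control clones of the lines were then compared over the 7 genes that both sets of files list. HEK293 controls had higher IGFBP4, IGFBP5, IGFBP7 and IGF1R than HCT116 controls, and IGFBP2, IGF2R and INSR did not pass the test. IGFBP4, IGFBP5 and IGFBP7 entered the test through the HEK293 libraries, so their values are given as a description. IGFBP5 had 111 and 72.8 CPM in the HEK293 control libraries, against 0 to 1.04 CPM in the 12 HCT116 control libraries (log2 change 8.31, SE 0.47). IGFBP4 had 381 counts in the HEK293 control libraries and 2 in the HCT116 control libraries, a ratio of 497 in pooled CPM (exact 95% interval 137 to 4121, counting error only). IGFBP7 had 177 counts in the HEK293 control libraries and 4 in the HCT116 control libraries, a ratio of 116 (interval 44.3 to 429, counting error only). IGF1R had 133 and 96.3 CPM in the HEK293 control libraries, against 21.8 to 44.4 CPM in the HCT116 control libraries (log2 change 1.61, SE 0.15, edgeR adjusted p = 0.000139). For all 4 genes each HEK293 library lay above each HCT116 library. How many of all genes lay apart between the lines in this way was not counted, so nothing is read from these positions.

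**Figure D4:**
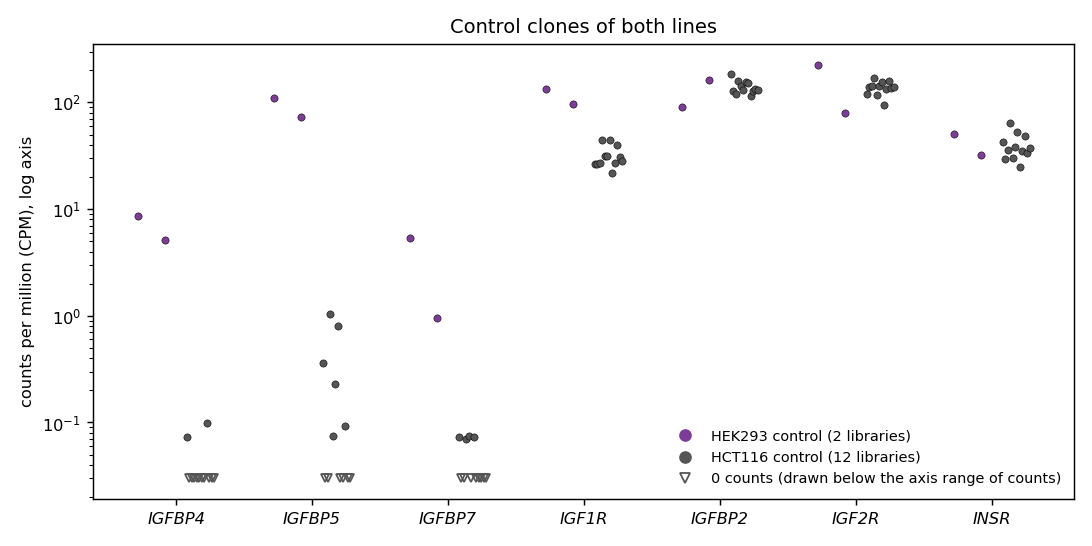
CPM (y axis, log scale) of the 7 IGF genes listed for both lines in 2 HEK293 and 12 HCT116 control libraries; triangles mark libraries with 0 counts. IGFBP4, IGFBP5, IGFBP7 and IGF1R stand higher in both HEK293 libraries than in every HCT116 library, and IGFBP2, IGF2R and INSR overlap. The share of all genes that lie apart between the lines was not counted.

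IGFBP2 (log2 change -0.38, SE 0.24, adjusted p = 0.212), IGF2R (-0.10, SE 0.34, adjusted p = 0.813) and INSR (-0.19, SE 0.17, adjusted p = 0.375) overlapped between the lines. Here too single HEK293 libraries counted: IGF2R was -0.98 without library 1 and 0.44 without library 2, INSR was -0.49 without library 1, and IGFBP2 was -0.92 without library 2, each past the threshold. Of 7 members tested, 4 passed, all higher in HEK293, where 57.0% of 11805 genes passed (31.1% higher, 26.0% lower), so that the count of calls is close to the share among all genes. IGFBP4, IGFBP5 and IGFBP7 have few counts in HCT116 and entered the test through the HEK293 libraries, whose files list no gene with under 5 counts over the 4 libraries, so a higher level in HEK293 was favoured for them by the choice of genes. The lines were extracted on different days, so line and day cannot be told apart. CPM of HCT116 is over all its genes, of which those listed for HEK293 hold 95.6% to 97.0%, while the fit used the shared genes alone. Of 45 pathway genes tested, 15 were higher and 14 lower in HEK293, with a median log2 change of -0.05, against 0.05 for all genes.

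Receptor adaptors stood at both ends of that list. IRS4 had 20835 counts (379 pooled CPM) in the HEK293 control libraries and 0 in the 12 HCT116 control libraries, at least 18128-fold higher against a floor of 3 counts over the group. IRS1 had 24.8 pooled CPM in the HEK293 controls and 286 in the HCT116 controls, over the genes listed for both lines (log2 change -3.74, SE 0.24). IGFBPL1, a relative of the binding proteins, had 231 counts in the HEK293 controls and 0 in the HCT116 controls, at least 201-fold higher against the same floor. HTRA1 (8.68, SE 0.49), a secreted protease that cleaves IGF binding proteins, IGF2BP1 (7.61, SE 0.27), an RNA-binding protein that binds IGF2 mRNA, and PIK3R3 (4.90, SE 0.15) were also higher in HEK293. IRS4, IGFBPL1 and HTRA1 (6 counts in the HCT116 controls) entered the fit through the HEK293 libraries. A higher level in HEK293 was therefore favoured for them too by the choice of genes. IGF2BP3 (-1.55, SE 0.21) and IGF2BP2 (-1.46, SE 0.11), the relatives of IGF2BP1, were lower, as were the adaptor SHC1 (-2.15, SE 0.12), the catalytic subunit PIK3CB (-1.46, SE 0.11) and HMGA2 (-1.44, SE 0.12), a chromatin protein known to raise IGF2BP2 in mouse embryos.

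The 4 HCT116 control clones, sampled on the same 3 days, show how far these genes vary with no deletion. IGFBP6 differed between clones. It had 42.3, 49.0 and 39.2 CPM in control clone 3 on days A, B and C, against 23.7 to 29.8 CPM in the other 3 clones (edgeR F test with day as a term, adjusted p = 0.000342, range of fitted log2 levels 0.85). On days A to C clone 3 was thus higher on each day, and its lowest library lay above the highest library of the others. On day D, from which clone 3 has no library here, clone 1 had 40.8 CPM and clone 2 had 83.8 CPM. Clone 1 thus lay within the range of clone 3 on days A to C, and clone 2 lay above it. H19 had the widest range between clones among the pathway genes that passed (3.10, adjusted p = 7.83e-08), and clone 3 stood apart there too, with 24.5, 55.2 and 48.3 CPM, against 3.17 to 8.55 CPM in the other clones. IGF2, beside H19 on chromosome 11, averaged 17.0 ± 6.02 CPM in clone 3 (SD, n = 3 libraries), 16.8 ± 2.97 in clone 1, 18.1 ± 5.21 in clone 2 and 11.9 ± 1.37 in clone 4. Its range of 0.58 missed the threshold (adjusted p = 0.0501), and passed it without day B (0.77, adjusted p = 0.00697).

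**Figure D5:**
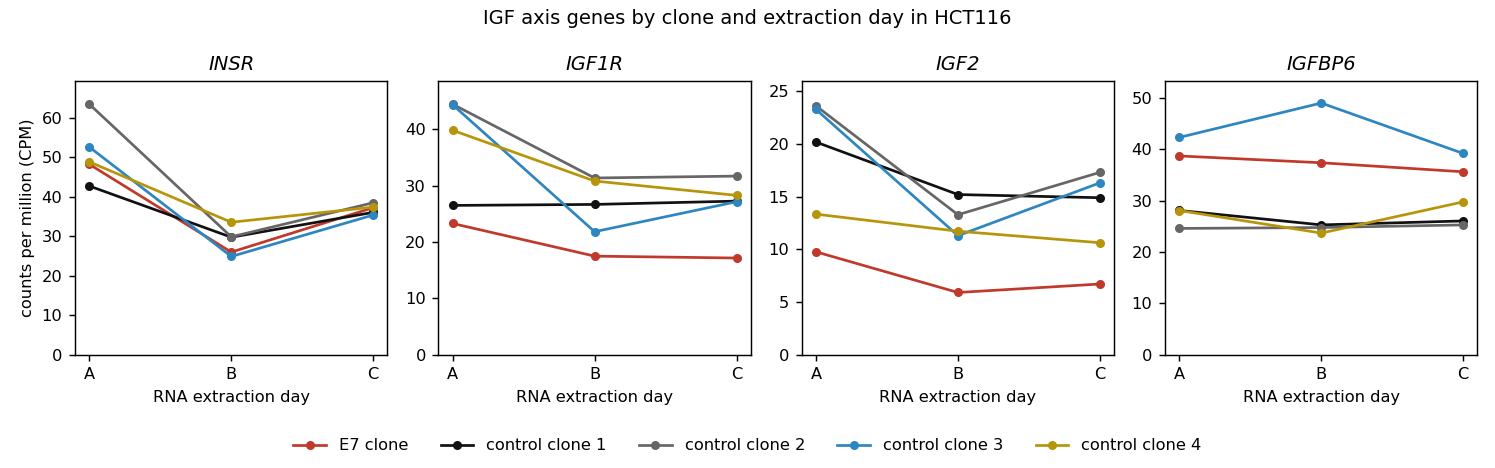
CPM (y axis, linear from 0) of INSR, IGF1R, IGF2 and IGFBP6 on extraction days A, B and C (x axis), with 1 line for the E7 clone and 1 for each of the 4 control clones of HCT116. IGFBP6 separates control clone 3 (39.2 to 49.0 CPM) from the other 3 control clones (23.7 to 29.8 CPM) on each day, and INSR is highest on day A in every clone.

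Between control clones 1 of 7 members tested passed, where 7.80% of 14988 genes did. IGFBP2 (range of fitted log2 levels 0.16), IGF2R (0.16), INSR (0.21) and IGF1R (0.37) had adjusted p values of 0.338 or more in edgeR. IGFBP5 had a range of 3.48 (adjusted p = 0.0834) on 36 counts. In the pathway list 5 of 45 genes passed, and beside H19 these were KAZALD1 (1.03), an IGF-binding-protein-related protein, AKT1 (0.64), IGF2BP3 (0.61) and GRB14 (0.61), an adaptor that inhibits the insulin receptor.

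INSR, IGF2 and IGF1R differed between days of RNA extraction, with their highest control means on day A. INSR had 42.7 to 63.5 CPM in the control clones on day A, 24.9 to 33.6 CPM on day B and 35.4 to 38.5 CPM on day C (edgeR F test with clone as a term, adjusted p = 0.000159, range of fitted log2 levels 0.76). Its day ranges did not overlap. IGF2 averaged 20.1 ± 4.77 CPM on day A, 12.9 ± 1.77 on day B and 14.8 ± 2.94 on day C (SD, n = 4 clones; adjusted p = 0.00425, range 0.57). IGF1R averaged 38.8 ± 8.47 CPM on day A, 27.7 ± 4.42 on day B and 28.6 ± 2.13 on day C (adjusted p = 0.0145, range 0.42). The clones did not move alike: IGF1R in clone 1 had 26.5, 26.7 and 27.2 CPM on days A, B and C, while clone 3 had 44.3, 21.8 and 27.1 CPM. IGFBP5 had 32 of its 36 control counts on day A. It passed the filter on low counts through day A libraries (15 counts in clone 2 and 11 in clone 3). A higher level on day A was thus favoured by the filter, and nothing is read from its call. IGFBP2 (range 0.30, adjusted p = 0.0741), IGF2R (0.25, adjusted p = 0.148) and IGFBP6 (0.02, adjusted p = 0.974) did not pass.

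For days, 4 of 7 members tested passed (INSR, IGF2, IGF1R and IGFBP5, the last favoured by the filter), where 38.2% of 14988 genes did. The IGF1R call was lost without clone 2, 3 or 4 (ranges 0.43, 0.29 and 0.45) and the IGF2 call without clone 2 (0.51). IGFBP5 could not be tested without clone 2 or clone 3, since it then missed the filter, while IGF2R passed without clone 1 (0.41) and IGFBP2 without clone 4 (0.41). Of the pathway list, 23 of 45 genes passed, led by CDKN1C (range 1.17), PIK3R3 (1.05), PLAG1 (1.00), KAZALD1 (0.88), H19 (0.84) and IRS2 (0.83). Reads outside genes took 7.78% to 14.3% of each library on days A to C, and the part of that share in these day differences was not tested. The E7 ratios above compare libraries of the same day.

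Across the 22 HCT116 libraries, the genes whose log2(CPM + 0.5) followed that of IGFBP3 most closely, among 11229 genes searched, were FUT8 (Pearson r = 0.957), SYTL5 (0.957), VSNL1 (0.956), TERF2 (0.946) and the unnamed ENSG00000225720 (0.944). For IGF1R they were TTC21B (0.918), TLE3 (0.888), PREX1 (0.881), MOB3B (0.880) and OGFRL1 (0.855). For IGF2 they were SSTR5 (0.922), RTL5 (0.916), PLCG2 (0.913), NGFR (0.904) and DEPDC7 (0.892). The libraries share clones and extraction days, and the 3 E7 libraries of 1 clone stand apart for IGFBP3, so these values are descriptions of rank only.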

How the data were processed

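RNA was measured in 26 of the 32 samples of the series (22 HCT116 and 4 HEK293 libraries); the chromatin samples were not analysed here. The files the authors deposited hold raw counts of reads for each gene, 1 file a library. The submitters' processing notes name HTSeq 0.6.1, TopHat2, BWA 0.6.2, Partek 3, bedtools, CASAVA and bcl2fastq, and the build hg19, and they name no strand setting. Summary lines (reads outside genes, ambiguous or aligned at several places, up to 14.3%, 3.60% and 24.8% of a library) stayed out of library sizes and tests.

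CPM is counts over a library's gene counts. Tests used the 2-sided quasi-likelihood F test of edgeR 4.0.16 in R 4.3.3, with TMM factors and filterByExpr at a minimum count of 10. P-values were adjusted by Benjamini-Hochberg over every gene in the fit, and the threshold was 0.05; the standard error is the log2 change over the square root of F. E7 and control libraries of HCT116 were summed per clone over days A to C; 18qNE clones were set against control clones summed over A and B, 18qE with control libraries of day D, and HEK293 libraries within day E. For deletions and lines, the spread behind each p-value is that between clones, and in HEK293 the E7 libraries may be of 1 clone. For the F tests between control clones and between days, it is the spread left between the 12 control libraries after clone and day terms. DESeq2 1.42.0, other normalization, no filter and left-out libraries were alternatives. Ratios of pooled CPM carry exact 95% intervals. Members, gene lists and tests were chosen with earlier results of these data known. Every member is named in each comparison; of the 62 pathway genes, up to 6 per direction with the largest change among those past the threshold are named, except 1 that is not reported here, nor is 1 marker list.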

Additional observations from a re-analysis of the deposited data

Results flagged for a closer look

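IGFBP6 in control clone 3 of HCT116 stood far from the other control clones: the gap between it and the nearest of the others was 0.876 of the whole range of the 4 clones, over Dixon's critical value for 4 values, a test that flags about 1 in 20 groups by chance. Clone 3 averaged 43.5 ± 5.02 CPM over days A to C (SD, n = 3 libraries), and the other clones 24.9 ± 0.355 to 27.2 ± 3.14 CPM. On day D, control clone 1 had 40.8 CPM, within the range of clone 3 on days A to C (39.2 to 49.0 CPM). Control clone 2 had 83.8 CPM on day D, above that range, and clone 3 has no day D library here.

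IGF1R lay on opposite sides of the controls in the 2 lines with E7 deleted, with a log2 change of -0.691963 in HCT116 and 0.404853 in HEK293. Each of the 3 HCT116 E7 libraries was below the 4 control libraries of its day, and both HEK293 E7 libraries were above both control libraries. IGF1R was flagged by these positions, so they are no further evidence for the difference. In HEK293 the change did not pass the test (adjusted p = 0.491 in edgeR). The difference between the lines was not tested, and each side rests on few clones. The share of all genes that lay apart between 2 and 2 HEK293 libraries was not counted.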

How the results depend on the processing

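For E7 in HCT116, 2456 genes and 4 members passed; leaving out a clone, library or day gave 1477 to 3087 genes and 1 to 5 members, the lowest without control clone 1 for genes and without control clone 2 for members, and fitting 15 libraries with day as a term gave 5178 genes. For 18qNE, 0 genes passed, against 16 with no filter, 13 with DESeq2, 3 with day as a term and 0 to 1 with a clone left out. The fits with day as a term, for E7 in HCT116 and for 18qNE, took libraries of the same clone as separate replicates. Their counts of genes cannot be set against those from clone sums. For 18qE, 0 genes passed, against 19 with DESeq2 and 0 to 132 with a clone left out. For E7 in HEK293, 3 genes and 0 members passed, against 463 genes with DESeq2, 71 with the E7 libraries summed, and 74 to 6210 genes and 0 to 5 members with a library left out. Between control clones, 1169 genes and 1 member passed, against 1959 genes and 2 members with no filter, 2 members with RLE factors, and 308 to 1694 genes and 1 to 2 members with a day left out. Between days, 5731 genes and 4 members passed, and 2228 to 6465 genes and 1 to 5 members with a clone left out. The cause was not tested. Where a single E7 library of HCT116 was left out, the control clones kept its day, so those fits were not balanced for day.

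Some small log2 changes changed sign when a library was left out: INSR for E7 in HCT116 (-0.33 to 0.14), IGFBP6 (-0.070 to 0.31) and INSR (-0.16 to 0.43) for 18qNE, IGFBP2 (-0.073 to 0.14) and INSR (-0.015 to 0.25) for 18qE, IGF2R (-0.44 to 0.99) and INSR (-0.14 to 0.41) for E7 in HEK293, and IGFBP2 (-0.92 to 0.013), IGF2R (-0.98 to 0.44) and INSR (-0.49 to 0.057) between the lines. Of these, IGF2R and INSR for E7 in HEK293 and all 3 between the lines passed the threshold at one end or both.

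With the replicate number as a replicate block, E7 in HEK293 gave 670 genes and 1 member, IGFBP7 (log2 change 1.90, adjusted p = 0.00627 in edgeR). Deviations of same-numbered libraries correlated at 0.356 in HEK293, 0.0937 for 18qE, and -0.254, -0.258 and 0.117 for 18qNE, and no label says that the numbers pair clones. At 9871667 to 14862268 counts per library, depth limits IGFBP4, IGFBP5 and IGFBP7 in HCT116 and the control level of IGFBP3.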
